A study of Homo sapiens with 45 samples.

Results

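U2OS is one of 6 osteosarcoma cell lines in the series, and it was compared here with the other 5. The 3 U2OS libraries were set against 15 libraries of G292, HOS-MNNG, KHOS, MG63 and SAOS2, which are 18 of the 45 libraries of the series. All 6 lines are labelled osteosarcoma, a bone tumour, and the labels give no treatment or genetic change for any of them. HOS-MNNG and KHOS are both descendants of the HOS line, made with a chemical carcinogen and with a sarcoma virus respectively, so the 5 lines hold 4 origins. Each line is a single established culture lineage represented by 3 libraries, and the labels do not say whether these came from separate cultures. The remaining libraries are 21 of 7 Ewing sarcoma lines, used below as further reference samples and in 1 alternative fit, and 6 of a knockdown experiment that was not used. A gene was counted as highest in U2OS when all 3 U2OS libraries lay above all 15 others in normalised CPM (estimated counts per library size, scaled by trimmed means of M values), and as lowest when all 3 lay below. Among 26632 genes with enough reads to be tested, 3360 were highest in U2OS (12.6%) and 2175 were lowest (8.17%). That ordering selects the genes, so the values of the selected genes are given below as a description.

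U2OS is a widely used osteosarcoma model. Cells answer DNA damage by raising genes for growth arrest, DNA repair and cell death, and U2OS is a common model of that response. The line is also known for maintaining its telomeres by the alternative, recombination-based route, which in tumours often goes with loss of ATRX, a chromatin remodeller. SAOS2 uses the same route. Osteosarcoma cells are held to stem from the osteoblast lineage, whose cells make a collagen-rich matrix. The series was built around KCNN1, which encodes SK1, a potassium channel of small conductance opened by calcium.

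Total estimated counts of the osteosarcoma libraries ranged from 15974173 to 44911542, and the U2OS libraries held 25834254 to 29912007. Libraries of the same line correlated at 0.984 to 0.992 in log2 CPM across genes (18 pairs), and libraries of different lines at 0.849 to 0.970 (135 pairs); these are correlations across genes, which are not independent replicates. On line sums, the Spearman correlation of U2OS with another line ranged from 0.832 (G292) to 0.857 (HOS-MNNG), while the pairs among the other lines ranged from 0.854 to 0.965. The osteoblast transcription factor RUNX2 was at 9.99 to 12.8 TPM in U2OS (TPM, the deposited transcript abundance scaled for length and depth), and the bone matrix genes COL1A1 and SPARC were at 615 to 665 and 782 to 825 TPM. SP7, a later osteoblast factor, was listed at 0 TPM in all 3 U2OS libraries. It was also at 0 in all 3 of G292 and at most 0.0418 TPM in HOS-MNNG, KHOS and MG63, and reached 25.4 TPM only in SAOS2. In bulk RNA, fewer cells that express a gene and less of its RNA per cell cannot be told apart.

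When each line was treated as 1 unit, edgeR's quasi-likelihood test on the 6 line sums called 70 genes higher in U2OS (0.263% of 26632) and 2 lower (0.00751%) at an adjusted p (false discovery rate, FDR) under 0.05, and 2453 genes had an unadjusted p under 0.05. All 70 and both of the 2 were also highest or lowest by the ordering. These calls did not survive the loss of any line: without G292, HOS-MNNG, KHOS, MG63 or SAOS2 in turn, 0 genes were called in either direction. The count was also 0 when HOS-MNNG and KHOS were summed to 1 unit. When the libraries were compared line by line, 3 against 3, 2904 genes were called higher than in each of the 5 lines (13.3% of 21915 genes) and 1901 lower than in each (8.67%). Of the genes that were highest, 2731 were among these calls, as were 1827 of the genes that were lowest. Such calls rest on the spread between libraries of a line, which may be technical, and they do not say how osteosarcoma lines vary. They also use the same libraries as the ordering, so for genes chosen by it they add no separate support. Ordering by TPM instead of normalised CPM gave 4487 highest and 1123 lowest genes, so a gene's place among the lowest is quoted below with its TPM. The median log2 fold change over all tested genes was -0.186 in the test on line sums. With limma voom it was 0.07, and with the libraries as units 0.116.

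Just inside the boundary for the highest genes lay PAK4, whose lowest U2OS library had 77.244 CPM and whose highest other library had 77.231 CPM. TMEM54 lay just outside, at 25.314 against 25.320 CPM. TTC1 was just inside the boundary for the lowest genes, its highest U2OS library having 43.785 CPM and its lowest other library 43.787 CPM. RHOA was just outside, at 479.629 against 479.555 CPM. The count of 3360 therefore includes genes with very small margins. The margin, the difference in log2(TPM + 1) between the U2OS mean and the nearest other line's mean, was at least 1 for 1401 of the highest genes and at least 3 for 221. It was -1 or lower for 217 of the lowest genes and -3 or lower for 29.

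KCNN1 (chr19:17951290-18000085, GRCh38.p14) was higher in U2OS than in every other osteosarcoma line, at a modest absolute level. The 3 U2OS libraries had 4.56, 3.89 and 4.65 TPM. The 15 other libraries ranged from 0.0179 TPM through a median of 0.0809 to 0.178 TPM. The groups did not overlap, and the lowest U2OS library stood 21.8-fold above the highest other library. In estimated counts these levels were 183 to 244 per U2OS library and 1.16 to 13.5 per other library. The U2OS mean on the log2(TPM + 1) scale, where 1 TPM was added, exceeded the mean of the 5 other lines by 2.31, with an exact 2-sided permutation p of 0.167 over the 6 lines, the smallest p that 6 lines can give. In the test on line sums the log2 fold change was 5.39 (SE 0.63, edgeR FDR 0.0486). This call was lost without any 1 of the other lines (FDR 0.0887 to 0.202), with HOS-MNNG and KHOS as 1 unit (FDR 0.186) with an offset for transcript length (FDR 0.0507) and without replicate 1, 2 or 3 of every line (FDR 0.0697, 0.0538 and 0.0677), while the fold change stayed between 5.24 and 5.64 over all alternatives. Against single lines, with libraries as units, the smallest log2 fold change was 4.97 (largest edgeR FDR 1.53e-10). The U2OS mean was still below every Ewing sarcoma line, of which the lowest had 1.74 times and the highest 11.2 times the U2OS level.

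The other channels of the family were tested with KCNN1 because they share the calcium-gated potassium current. KCNN4, the intermediate-conductance channel, had 108 to 117 TPM in U2OS against 5.99 to 98.0 TPM elsewhere, but its normalised CPM overlapped those of SAOS2. KCNMA1, the large-conductance channel, was lowest in U2OS, at 16.6 to 20.3 TPM against 31.4 to 273 TPM. KCNN2 and KCNN3 stayed within the range of the other lines, with 0.958 to 1.35 TPM and 0.0416 to 0.0526 TPM. Of the 5 channel genes, 1 was highest and 1 was lowest. A RefSeq promoter of KCNN1 holds 24 CpG dinucleotides, the sites of DNA methylation in mammals, in the 250 bases before a start of transcription (chr19:17966857-17967106, plus strand, GRCh38.p14). This window lies inside the span of the gene given above, so it precedes an internal start. Which start was used in U2OS was not examined. The promoter is printed here with each CpG in capitals, because KCNN1 is the gene the series asks about. It serves below as a CpG-rich example beside promoters that are poor in CpG.
KCNN1: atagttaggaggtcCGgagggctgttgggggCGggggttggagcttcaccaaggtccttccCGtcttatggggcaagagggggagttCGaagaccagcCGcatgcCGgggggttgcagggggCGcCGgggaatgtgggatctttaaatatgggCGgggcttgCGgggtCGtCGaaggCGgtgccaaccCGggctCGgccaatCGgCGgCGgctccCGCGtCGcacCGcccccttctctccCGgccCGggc

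The genes that set U2OS apart most were near silent in the other 5 lines and abundant in U2OS. DHRS2 (chr14:23630115-23645639), a short-chain dehydrogenase of mitochondria and nucleus, had 1911, 2187 and 2026 TPM in U2OS. In the other 15 libraries it ranged from 0.158 through 0.308 to 2.28 TPM, which made it the gene with the largest margin (9.91 on the log2 scale). Its log2 fold change was 11.65 (SE 0.78, edgeR FDR 0.0319), and the highest Ewing sarcoma line had a mean of 11.4 TPM. KRT17, a keratin of stratified epithelium, had 720, 474 and 454 TPM and at most 0.124 TPM in another osteosarcoma library. It was not silent in Ewing sarcoma lines, whose means ran from 1.0 to 97.3 TPM. TUBA3C, an alpha-tubulin gene of the testis, had 337 to 367 TPM, and only 1 of the 15 other libraries had any estimated count for it. Its near-identical copies in the genome share reads with it, so the split between them is uncertain.

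Genes of the germ line and of striated muscle were also among those with the largest margins. PAGE2 and PAGE2B, neighbouring and closely related cancer-testis genes on chromosome X, had 448 to 510 and 272 to 330 TPM against at most 0.180 and 0.187 TPM. They share sequence, so reads may have been divided between them. RFPL4A, a gene of the oocyte and early embryo with close copies nearby, had 144 to 150 TPM against at most 0.259 TPM (log2 fold change 10.42, SE 0.89, edgeR FDR 0.0319). GTSF1, which acts with piRNA proteins to silence transposons in the germ line, had 96.4, 90.0 and 96.2 TPM. It was listed at 0 in 12 of the 15 other libraries and at 0.0947 to 0.103 TPM in the 3 of HOS-MNNG. TNNT2, cardiac troponin T, had 135, 124 and 124 TPM and was detected in 1 line besides U2OS, MG63, at up to 0.409 TPM.

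MAGEA4, SUN3, LINC00452 and FAM95A completed the 12 genes with the largest margins once pseudogenes and symbols starting with LOC were left out. MAGEA4, a cancer-testis antigen, had 210, 210 and 195 TPM in U2OS and up to 1.93 TPM in SAOS2. SUN3, a testis gene for a nuclear envelope protein, had 151 to 172 TPM in U2OS and at most 1.99 TPM, again in SAOS2. The long noncoding RNA gene LINC00452 had 81.1 to 116 TPM against at most 0.513 TPM, and FAM95A had 62.9 to 77.0 TPM against at most 0.217 TPM. Of the 12, DHRS2, KRT17, PAGE2, TUBA3C, PAGE2B, RFPL4A and LINC00452 passed edgeR's test on line sums (FDR 0.0319 each), and the other 5 did not (FDR 0.0529 to 0.355). Each of the 12 was called higher against each of the 5 lines with libraries as units, but the same libraries chose the genes. With the same genes left out, the steepest rises called on line sums also included DCAF12L1, with 13.2 to 14.3 TPM, and MAGEA11, with 31.2 to 33.6 TPM; they reached at most 0.0153 and 0.0387 TPM in the other lines.

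**Figure D1:**
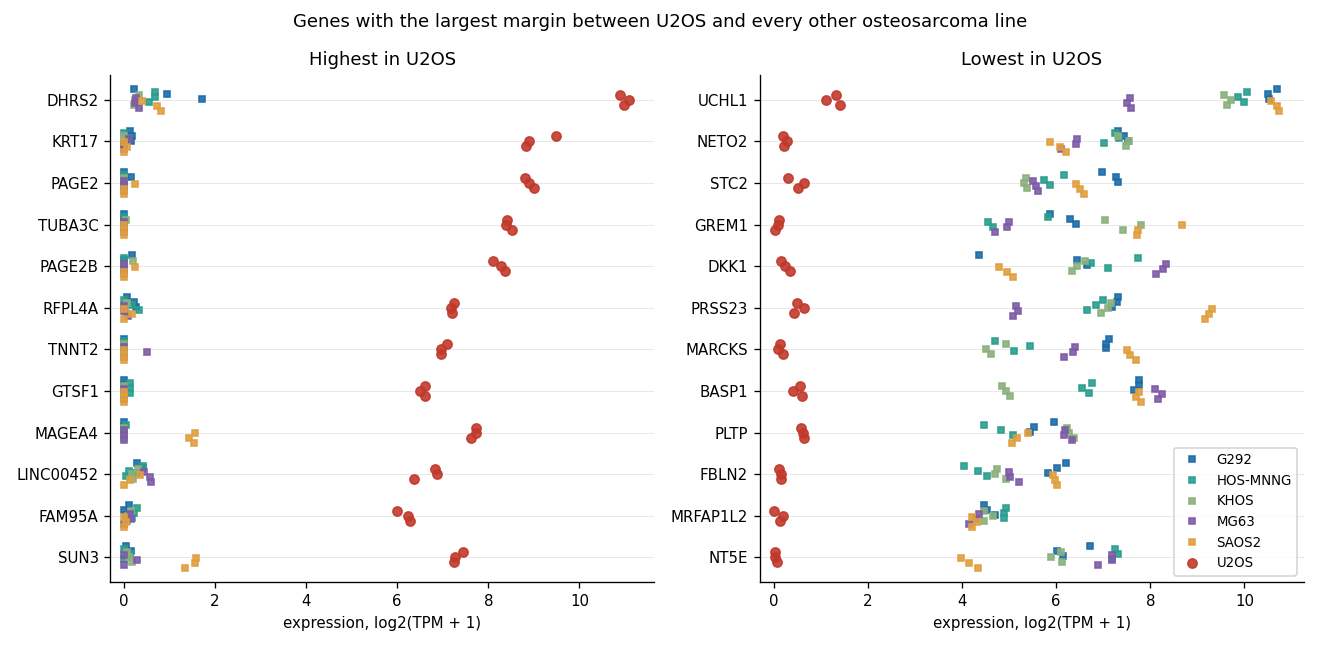
Expression of the 12 genes with the largest margin above (left) and below (right) the other lines, without pseudogenes and LOC symbols, as log2(TPM + 1) on the horizontal axis, with 1 point per library for 3 libraries of each of 6 lines. U2OS libraries are the red circles and stand apart from the squares of the other 15 libraries in every row; DHRS2 lies at 1911 to 2187 TPM in U2OS and UCHL1 at 1.15 to 1.65 TPM.

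At the other end stood genes that all 5 other lines expressed strongly and U2OS hardly at all. UCHL1 (chr4:41256928-41268455), a deubiquitinating enzyme abundant in neurons, had 1.49, 1.15 and 1.65 TPM in U2OS. It had 182 to 1691 TPM in the other 15 libraries, with a median of 1012 TPM, and 907 TPM or more in every Ewing sarcoma line. Its log2 fold change of -9.81 (SE 1.77) missed the threshold on line sums (edgeR FDR 0.104) and was called against each line with libraries as units. NETO2, an accessory subunit of glutamate receptors, had 0.149 to 0.209 TPM against 57.4 to 186 TPM. MARCKS (chr6:113857345-113863475) and BASP1, membrane-bound substrates and regulators of the actin cortex, had 0.0706 to 0.142 and 0.332 to 0.515 TPM against 21.8 to 206 and 27.7 to 301 TPM. Every Ewing sarcoma line expressed both, with lowest line means of 34.9 TPM for MARCKS and 280 TPM for BASP1.

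Among the lowest genes, STC2, a secreted glycoprotein that inhibits a protease of IGF-binding proteins, had 0.236 to 0.553 TPM in U2OS against 38.9 to 158 TPM. GREM1, a BMP antagonist, had 0.0174 to 0.0736 TPM against 22.5 to 406 TPM, and DKK1, a WNT antagonist, had 0.117 to 0.277 TPM against 19.5 to 319 TPM. FBLN2, a matrix glycoprotein, had 0.0806 to 0.114 TPM against 15.5 to 73.3 TPM. PLTP, the phospholipid transfer protein, had 0.485 to 0.570 TPM against 21.1 to 82.0 TPM. NT5E, the ecto-enzyme known as CD73, had 0.0198 to 0.0402 TPM, from 4 estimated counts in the 3 libraries together, against 14.8 to 159 TPM. The serine protease PRSS23 had 0.338 to 0.563 TPM against 32.9 to 631 TPM. None of these 7 passed edgeR's test on line sums (FDR 0.0553 to 0.193), where the other lines' own spread enters, although each was called lower against each line with libraries as units. The 2 genes that passed on line sums were MRFAP1L2, at most 0.150 TPM against 16.8 to 29.7 TPM (FDR 0.0498), and SKAP2, a signalling adaptor, at 0.0684 to 0.162 TPM against 11.4 to 39.1 TPM (FDR 0.0498). Without U2OS replicate 1, 2 or 3 in turn, 0, 1 and 1 genes were called lower on line sums.

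CpG was counted in the promoters of the highest and lowest genes. RefSeq promoters were matched for 18681 tested genes, and the median number of CpG in the 250 bases before the start was 17. It was 12 for 2162 promoters of genes highest in U2OS and 21 for 1808 promoters of genes lowest in U2OS. Among protein-coding genes alone the medians were 15 for the highest, 21 for the lowest and 19 for all. Promoters with 5 or fewer CpG made up 33.8% of the highest, 7.36% of the lowest and 23.9% of all. The choice of the genes bears on this, since a highest gene may be silent in the other lines and a lowest gene may not. Among genes with at least 10 counts in each of the other 5 lines, the medians were 18 for 973 highest, 21 for 1778 lowest and 20 for all 12701. Among the protein-coding genes of these, the medians were nearly equal, 20 for 729 highest, 21 for 1699 lowest and 21 for all 10711. This is a description without a test, and methylation was not measured.

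The printed examples are leading genes of each kind, all from RefSeq (GRCh38.p14), 5′ to 3′ in the direction of transcription, with CpG in capitals. PAGE2 (chrX:55088768-55089017, plus strand), a germ-line gene, has 11 CpG. DHRS2 (chr14:23629865-23630114, plus strand) has 0 CpG in this window, and TNNT2 (chr1:201377681-201377930, minus strand) has 5. UCHL1 (chr4:41256678-41256927, plus strand) and MARCKS (chr6:113857095-113857344, plus strand), which were near absent in U2OS, have 20 and 23.
PAGE2: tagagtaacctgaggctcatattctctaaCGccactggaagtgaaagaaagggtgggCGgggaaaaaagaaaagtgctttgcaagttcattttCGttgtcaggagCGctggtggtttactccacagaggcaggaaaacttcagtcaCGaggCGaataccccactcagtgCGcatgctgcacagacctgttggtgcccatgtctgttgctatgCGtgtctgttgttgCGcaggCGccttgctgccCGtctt
DHRS2: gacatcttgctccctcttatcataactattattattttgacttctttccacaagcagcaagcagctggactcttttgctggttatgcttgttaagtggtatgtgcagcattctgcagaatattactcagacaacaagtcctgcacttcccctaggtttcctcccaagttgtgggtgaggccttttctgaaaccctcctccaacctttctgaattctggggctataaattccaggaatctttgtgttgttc
TNNT2: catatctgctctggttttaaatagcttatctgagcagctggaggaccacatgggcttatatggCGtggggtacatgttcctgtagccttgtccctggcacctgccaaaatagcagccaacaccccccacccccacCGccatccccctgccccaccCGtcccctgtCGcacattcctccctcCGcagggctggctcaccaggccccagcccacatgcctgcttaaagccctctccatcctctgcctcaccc
UCHL1: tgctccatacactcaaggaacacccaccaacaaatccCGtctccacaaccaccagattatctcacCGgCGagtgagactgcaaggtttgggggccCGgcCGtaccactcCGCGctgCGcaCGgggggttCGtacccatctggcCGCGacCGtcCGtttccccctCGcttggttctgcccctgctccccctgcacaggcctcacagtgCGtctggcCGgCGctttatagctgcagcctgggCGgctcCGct
MARCKS: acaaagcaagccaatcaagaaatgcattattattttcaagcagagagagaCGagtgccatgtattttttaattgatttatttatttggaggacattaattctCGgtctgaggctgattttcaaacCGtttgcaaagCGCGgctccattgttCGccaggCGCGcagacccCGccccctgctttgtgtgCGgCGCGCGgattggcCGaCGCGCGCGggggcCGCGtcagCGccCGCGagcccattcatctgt

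Members of 26 gene lists were counted in the same way, with 12.6% of tested genes highest and 8.17% lowest as the background. The lists with the largest share of highest genes were cancer-testis antigens, with 13 of the 24 tested (54.2%; 46.4% of 28 members), and DNA damage and growth arrest genes, with 16 of 30 (53.3%), all tested. The lists with the largest share of lowest genes were anterior HOX genes, MHC class I presentation, and collagen and matrix genes, with 6 of the 20 tested (30%; 28.6% of 21 members), 5 of 18 (27.8%) and 8 of 31 (25.8%). The members of a list are not independent of each other, and no test was made of a list. Several counts moved when another line or a U2OS library was left out (the latter chosen after seeing the data). Highest genes then numbered 13 to 19 among cancer-testis antigens and 2 to 7 among receptor tyrosine kinases. Lowest genes numbered 4 to 8 among telomere genes, 4 to 8 among S phase genes and 3 to 6 among cytosolic DNA sensing genes.

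**Figure D2:**
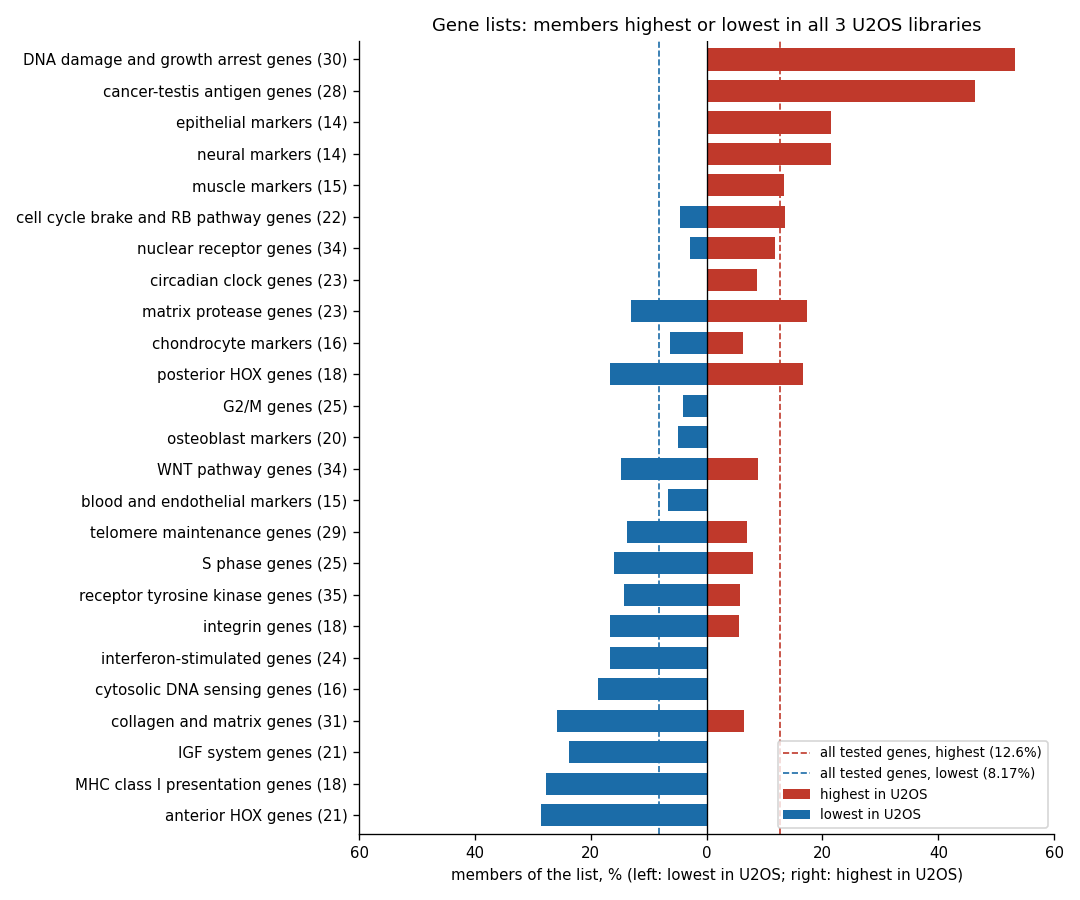
Share of all members of each gene list, untested ones included (%, number of members in brackets) that were highest (red, to the right) or lowest (blue, to the left) in all 3 U2OS libraries among the 18 osteosarcoma libraries; the list of 5 channel genes is left out. Dashed lines mark the shares among all 26632 tested genes, 12.6% highest and 8.17% lowest; DNA damage and growth arrest genes reach 53.3% on the right and anterior HOX genes 28.6% on the left.

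Genes of the response to DNA damage, with roles in growth arrest, repair and cell death, were higher in U2OS as a group. Summed over the 30 genes, U2OS libraries had 1842 to 1976 TPM, and the highest of the other 15 libraries, from MG63, had 1181 TPM. No member was lowest in U2OS, the log2 fold change was above 0 for 25 of the 30, and their median was 0.97 against -0.186 over all tested genes. With libraries as units 17 of the 30 were called higher than in each of the 5 lines (background 13.3%), while 0 passed edgeR's test on line sums. The count of 16 ranged from 16 to 18 when any other line or any U2OS library was left out (the latter chosen after seeing the data), and was 18 with TPM.

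Among feedback regulators of the response, MDM2, a ubiquitin ligase, had 39.5, 39.2 and 34 TPM in U2OS against 8.75 to 31.1 TPM. PPM1D, a phosphatase that shuts damage signalling off, had 60.3, 54.4 and 39.6 TPM against 5.73 to 23.4 TPM. Both were above all 15 other libraries. At the level of transcripts, the MDM2 transcript NM_001367990.1 took 1949 to 2450 estimated counts in U2OS libraries (50.1% to 62.4% of the gene's count) and 166 to 700 in the others (8.18% to 43.8%). Transcripts of a gene share most of their sequence, so such a split is an estimate.

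Genes that act in DNA repair and nucleotide supply were among the widest apart. DDB2, a damage sensor of nucleotide excision repair, had 102, 98.4 and 96.0 TPM in U2OS against 11.6 to 26.3 TPM. RRM2B, the damage-inducible ribonucleotide reductase subunit, had 57.7 to 80.7 TPM against 10.6 to 19.4 TPM. FDXR, the mitochondrial ferredoxin reductase, had 91.4, 93.8 and 94.1 TPM against 1.76 to 13.1 TPM, and its smallest log2 fold change against a single line was 2.68 (largest edgeR FDR 3.73e-14). XPC, also of excision repair, had 29.9 to 37.9 TPM and overlapped with G292, where it reached 40.7 TPM. Repair genes on the list therefore did not all stand out.

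Genes that slow growth or regulate metabolism showed the same split. BTG2, an antiproliferative factor, had 28.7, 22.6 and 20.1 TPM in U2OS and at most 2.53 TPM elsewhere in osteosarcoma, although Ewing sarcoma lines reached a mean of 64.9 TPM. SESN2, a brake on mTORC1, had 22 to 28.1 TPM against at most 13.3 TPM, and TIGAR, a phosphatase that lowers glycolysis, had 12.9 to 15 TPM against at most 6.80 TPM. PHLDA3, which represses AKT, had 73.0 to 81.5 TPM against at most 21.1 TPM. CDKN1A, the p21 inhibitor of cyclin-dependent kinases, had 185, 195 and 174 TPM, and its highest other library, of KHOS, had 111 TPM. On normalised CPM, however, CDKN1A overlapped with KHOS, and it is not among the 16.

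Genes with roles in cell death were divided. BAX, which opens the outer mitochondrial membrane, had 320, 337 and 365 TPM in U2OS against 93.0 to 196 TPM. BBC3, also called PUMA, had 19.8 to 24.2 TPM against 2.39 to 12.9 TPM, and EDA2R, a TNF receptor family member, had 20.6 to 25.8 TPM against at most 5.70 TPM, the latter in SAOS2. The death receptors FAS and TNFRSF10B did not stand out, with 9.53 to 12.4 TPM and 35.7 to 43.8 TPM inside the ranges of 0.625 to 25 TPM and 19.4 to 76.6 TPM. PLK2, a kinase induced after damage, had 165 to 193 TPM and was exceeded by MG63, at up to 489 TPM.

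**Figure D3:**
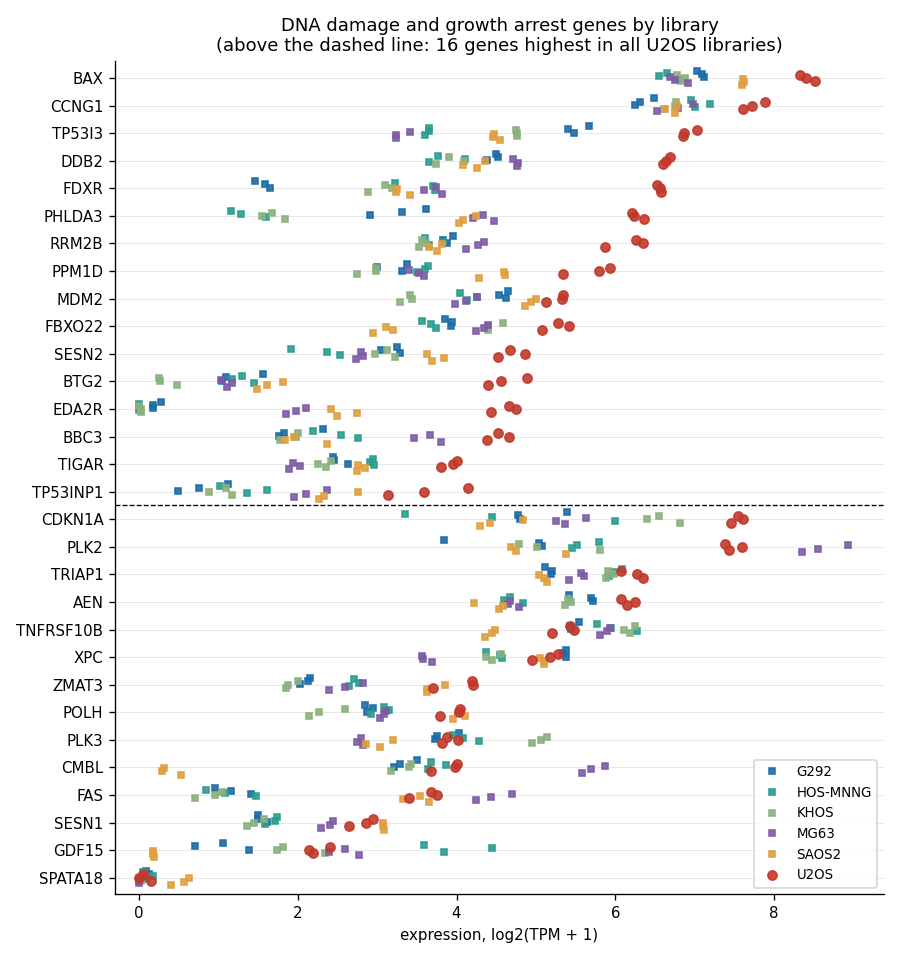
Expression of 30 DNA damage and growth arrest genes as log2(TPM + 1) on the horizontal axis, 1 point per library of 6 lines, with U2OS as red circles. Above the dashed line are the 16 genes for which all 3 U2OS libraries were highest, ordered by U2OS level and starting with BAX (320 to 365 TPM); below it are the other 14.

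Among cell cycle genes, CCND2, cyclin D2, had 55.3, 59.9 and 54.4 TPM in U2OS and at most 0.0507 TPM in the other lines, with a smallest log2 fold change against a single line of 10.07 (largest edgeR FDR 6.55e-20). CCNE1, cyclin E1, had 61.7 to 64.2 TPM against 4.44 to 20.7 TPM, and E2F2, a transcription factor of S phase entry, had 16.5 to 18.2 TPM against 3.81 to 8.99 TPM. These were the 3 highest of 22 genes on the list of cell cycle brakes and the RB pathway (13.6%, near the background of 12.6%); E2F3 was the 1 lowest, with 10.8 to 15.6 TPM that overlapped other lines in TPM. The other G1 cyclins lay inside the range of the other lines: CCND1 had 109 to 137 TPM against 2.09 to 595 TPM, CCND3 53.5 to 58.0 TPM against 36.5 to 137 TPM, and CCNE2 11.7 to 17.5 TPM against 7.64 to 48.5 TPM. CDKN2A, the INK4a/ARF locus, was at 0, 0 and 0.178 TPM in U2OS. It was near 0 in HOS-MNNG, KHOS and MG63 too, and had means of 231 TPM in G292 and 405 TPM in SAOS2. This low level was therefore shared with 3 lines.

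MKI67, a marker of dividing cells, had 55.3 to 86.5 TPM, inside the range of 46.9 to 121 TPM. Of 25 S phase genes 2 were highest and 4 lowest, and of 25 G2/M genes 0 were highest and 1 lowest. The counts depended on the scaling: in TPM, 6 S phase genes were highest and 2 lowest, and 4 G2/M genes were highest and 0 lowest. Summed G2/M genes had 3922 to 4541 TPM in U2OS and 3873 to 4240 TPM in MG63, so these lines overlapped.

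Among telomere maintenance genes, ATRX differed in level and in the transcripts its reads were assigned to. At gene level ATRX (chrX:77504880-77786216) was highest in U2OS, with 39.9, 37.2 and 24.5 TPM against 1.86 to 23.3 TPM. Its reads, though, were assigned almost entirely to a pair of the 11 listed transcripts, XM_005262157.6 and XM_017029604.3. Together they took 98.0%, 99.8% and 99.9% of the ATRX count in the U2OS libraries. In the other lines the pair's mean share was 1.69% (MG63) to 8.14% (SAOS2). The reference transcript NM_000489.6 had an estimated count of 0 in all 3 U2OS libraries, from total ATRX counts of 4030 to 6663, and 61 to 1896 counts in libraries of G292, HOS-MNNG, KHOS and MG63. It was also at 0 in all 3 SAOS2 libraries, where ATRX counts were few.

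SAOS2, which also uses the recombination-based route, had only 161 to 193 estimated counts of ATRX per library, a mean of 1.96 TPM, and 86.7%, 91.1% and 95.1% of them fell on XM_006724668.4. That shorter transcript (6044 nucleotides, against 11165 for NM_000489.6) took at most 0.04% in U2OS and 1.92% in any other library. The pair that led in U2OS took 12.4%, 8.07% and 3.93% of the SAOS2 count. U2OS thus had the highest and SAOS2 a low ATRX level, with different leading transcripts. These are estimates from reads shared among transcripts, and no read over a junction was examined.

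**Figure D4:**
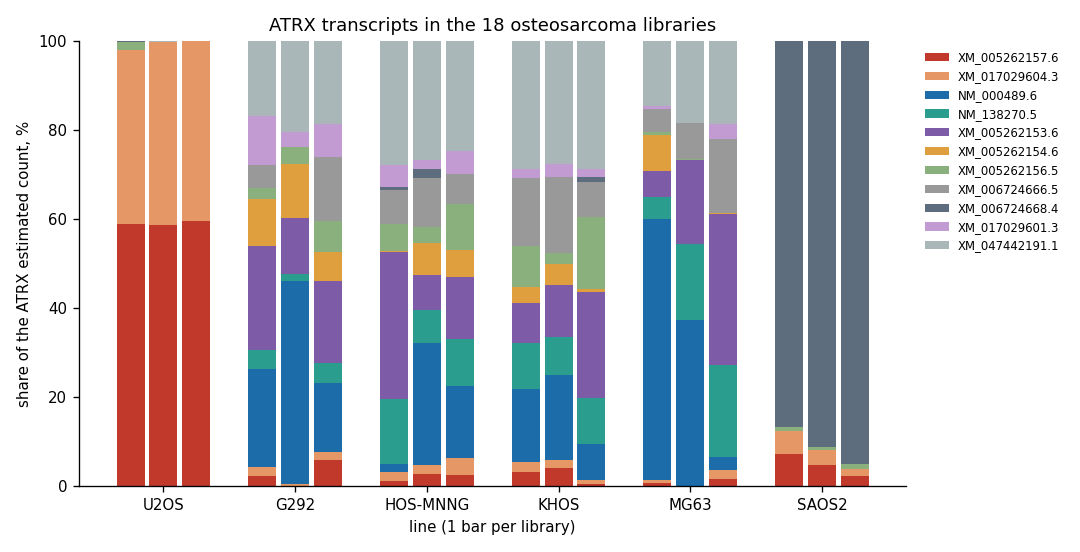
Share of the ATRX estimated count (%, vertical axis) assigned to each of 11 RefSeq transcripts, 1 stacked bar per library and 3 bars per line. The U2OS bars consist of XM_005262157.6 (about 59.0%) and XM_017029604.3 (about 40.2%), the SAOS2 bars mostly of XM_006724668.4 (91.0% on average), and the bars of the other 4 lines of many transcripts.

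The telomerase genes were low or absent in U2OS. TERT, the catalytic subunit, had 0.0186 to 0.0421 TPM in U2OS and was listed at 0 in all libraries of G292 and SAOS2, against means of 1.38 TPM in HOS-MNNG, 2.65 TPM in KHOS and 0.668 TPM in MG63. TERC, the telomerase RNA, was listed at 0 in all 3 U2OS libraries and had at most 3.34 TPM in the others, where 1 SAOS2 library was also at 0. TERC carries no stable poly(A) tail, the libraries were made from poly(A) RNA, and its counts were few (113 in the 15 other libraries together). TERF2IP, the shelterin protein RAP1, and SP100, a component of PML bodies, were lowest in U2OS, with 27.4 to 31.4 against 39.4 to 79.9 TPM and 22.6 to 28.6 against 39.8 to 61.8 TPM. TSPYL5 was highest, at 28.3 to 38.2 TPM against at most 20.6 TPM. In all, 2 of 29 telomere genes were highest and 4 lowest in normalised CPM; in TPM 2 were lowest, since POT1 and 1 other gene overlapped other lines.

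Genes of innate sensing and antigen presentation leaned to lower levels against the 5 other lines together. CGAS, the sensor of cytosolic DNA, had 6.68, 6.16 and 6.23 TPM in U2OS against 7.96 to 24.1 TPM, and DDX41, another nucleic acid sensor, had 43.7 to 48.4 TPM against 60.4 to 159 TPM. STING1, the adaptor downstream of CGAS, had 4.62 to 7.26 TPM and overlapped SAOS2 (4.63 to 7.75 TPM), and all 3 G292 libraries were below it, at 2.96 to 3.88 TPM. Of 16 cytosolic DNA sensing genes 3 were lowest and 0 highest, and TBK1, the third of these, overlapped in TPM. Of 24 interferon-stimulated genes none had a log2 fold change above 0, and their median was -2.49 against -0.186 for all genes; 4 were lowest (2 in TPM) and 0 highest, and 0 passed on line sums. The summed list was lower still in HOS-MNNG and KHOS, at 119 to 166 and 158 to 169 TPM against 190 to 237 TPM in U2OS, and G292, MG63 and SAOS2 libraries had 551 to 2080 TPM. IFIT2 had 0.465 to 0.610 TPM against 0.972 to 11.4 TPM, and IFIT3 had 2.46 to 3.57 TPM against 4.86 to 37.1 TPM. ISG15, a ubiquitin-like modifier, had 24.9 to 27.4 TPM, and its lowest other library had 24.6 TPM, so it was lowest in normalised CPM but not in TPM.

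The MHC class I list gave 5 lowest genes of 18 in normalised CPM and 0 in TPM. The invariant chain B2M had 638, 624 and 634 TPM against 635 to 3062 TPM, so it touched the lowest KHOS library. TAP2, ERAP1, CALR and PDIA3 were lowest in CPM and overlapped in TPM. Only 1 of the 18 genes had a log2 fold change above 0 against the 5 lines together. Summed over the list, U2OS had 2498 to 2556 TPM, which overlapped HOS-MNNG (2267 to 2670 TPM) and was above KHOS (2021 to 2106 TPM).

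Of 31 collagen and matrix genes 8 were lowest in U2OS and 2 collagens were highest. COL6A1 and COL6A2, chains of microfibrillar collagen VI, had 60.8 to 73.7 and 117 to 125 TPM against 158 to 1806 and 190 to 3384 TPM. COL5A2, a fibrillar collagen chain, had 22.5 to 33.7 TPM against 41.3 to 876 TPM. TGFBI, an adhesive matrix protein, had 22.4 to 28.9 TPM against 55.3 to 617 TPM, and the proteoglycan VCAN had 0.0652 to 0.0991 TPM against 1.55 to 69.4 TPM. FBN1, fibrillin, had 2.45 to 4.52 TPM against 5.14 to 158 TPM. COL4A2 and COL12A1 went the other way, with 179 to 208 TPM against at most 132 TPM and 73.2 to 91.6 TPM against at most 53.8 TPM. The median log2 fold change of the 31 matrix genes against the 5 lines together was -3.15, with 7 above 0. The summed list had 1195 to 1472 TPM in U2OS and overlapped KHOS (1395 to 1551 TPM). COL3A1, LUM and FN1 were higher in U2OS than in HOS-MNNG and KHOS. In all, 8 of the 31 were also called lower and 2 higher against each line with libraries as units.

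Receptors and enzymes of the matrix were split. Of 18 integrin genes, ITGA1, ITGA4 and ITGA11 were lowest and ITGB8 was highest. ITGA11, a collagen receptor, had 0.232 to 0.476 TPM against 2.25 to 60.3 TPM, and ITGB8, which activates latent TGF-beta, had 7.04 to 14 TPM against at most 3.64 TPM. Of 23 matrix protease genes 4 were highest and 3 lowest in normalised CPM, and 5 and 1 in TPM. MMP9, a gelatinase, had 13.4, 21.3 and 21.8 TPM in U2OS and at most 1.5 TPM elsewhere. The plasminogen activators went in opposite directions: PLAT had 32.2 to 40.3 TPM against at most 13.7 TPM, and PLAU had 20.6 to 25.8 TPM against 45.1 to 1666 TPM.

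Growth factor systems contained several near-silent members. IGF2BP3, an RNA-binding protein of fetal tissue and tumours, had 0.542, 0.689 and 0.501 TPM in U2OS against 20.3 to 129 TPM. IGFBP3, the main carrier of circulating IGF, had 0.0266 to 0.0907 TPM against 1.26 to 63.4 TPM, and IRS2, an adaptor of the insulin and IGF receptors, had 0.106 to 0.122 TPM against 0.685 to 4.57 TPM. With STC2 and IGFBP2 they made 5 lowest and 0 highest of 21 IGF system genes. Among 35 receptor tyrosine kinases 5 were lowest, including EGFR (3.13 to 4.82 against 10.6 to 40.4 TPM) and PDGFRA (2.47 to 5.19 against 8.46 to 232 TPM). The 2 highest were ERBB3 (4.34 to 5.75 against at most 0.742 TPM) and FLT4, a receptor for lymphatic growth factors (7.99 to 8.64 against at most 2.92 TPM).

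In the WNT pathway 3 of 34 genes were highest and 5 lowest (4 and 3 in TPM). Besides DKK1, the transcription factor TCF7 was nearly absent, with 0.130 to 0.334 TPM against 4.10 to 164 TPM, and the ligand WNT5B was low, with 4.64 to 5.82 TPM against 11.3 to 185 TPM. The ligand WNT10A and the receptor FZD3 were highest, with 4.27 to 6.93 TPM against at most 0.528 TPM and 12.9 to 16.6 TPM against at most 4.04 TPM.

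HOX genes, which record position along the body axis, were counted in an anterior and a posterior list. The anterior list also holds central genes such as HOXA5, HOXA6, HOXA7 and HOXB8, and the posterior list holds HOXC8 and HOXD8. None of the 21 genes of the anterior list was highest and 6 were lowest. HOXD4 had 0.266 to 0.372 TPM in U2OS against 3.73 to 19.3 TPM, HOXB4 had 0.454 to 0.496 TPM against 3.18 to 22.7 TPM, and HOXA5 had 0.949 to 1.35 TPM against 4.09 to 20.8 TPM. Of the 18 genes of the posterior list 3 were highest and 3 lowest. Lowest genes of the HOXA cluster fell on both sides of the split, with HOXA5, HOXA6 and HOXA7 in the anterior list and HOXA9 and HOXA10 in the posterior list. HOXC13 had 13.9 to 14.5 TPM against at most 9.85 TPM and HOXB9 had 43.6 to 46.8 TPM against at most 30.6 TPM, whereas HOXD13 had 0.105 to 0.321 TPM against 1.09 to 14.8 TPM.

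Cancer-testis antigen genes, normally expressed in germ cells, were another group with many highest members. Beyond PAGE2 and MAGEA4, XAGE1B had 980, 1007 and 1123 TPM in U2OS and at most 152 TPM, in SAOS2. PRAME, which was expressed in every line, had 386 to 418 TPM against 9.94 to 214 TPM. MAGEC1 had 39.8 to 50.6 TPM against at most 1.44 TPM, MAGEA8 had 39.8 to 44.6 TPM against at most 0.165 TPM, and DDX43, an RNA helicase, had 13.1 to 15.9 TPM against at most 0.194 TPM. SAOS2 was the nearest line for several of them: MAGEA1 reached 77.1 TPM there against 135 to 153 TPM in U2OS, and MAGEB2 reached 39.4 TPM against 106 to 115 TPM. Of the 13 highest genes 3 had fewer than 10 counts in every other line, 12 of the list were called higher against each line, and 3 passed on line sums. Several of these genes are near-identical copies on chromosome X (the MAGEA, GAGE, PAGE and XAGE groups), so single members are uncertain.

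Of 20 osteoblast markers 0 were highest and 1 was lowest in U2OS. Against the 5 lines together the median log2 fold change of the 18 tested was -2.08, with 2 above 0. Without SAOS2 the values of RUNX2, COL1A1 and ALPL turned positive (0.66, 0.24 and 0.059), and that of COL1A2 kept its sign. The lowest gene was COL1A2, a chain of collagen I, with 0.0800 to 0.178 TPM against 0.405 to 883 TPM. COL1A1, its partner chain, stood at 615 to 665 TPM, near the median of the other libraries (668 TPM). ALPL, alkaline phosphatase, had 5.10 to 6.53 TPM, between a mean of 0.122 TPM in KHOS and 824 TPM in SAOS2. Summed over the list, U2OS libraries had 1446 to 1543 TPM and the other lines ranged from 285 (HOS-MNNG) to 5176 TPM (SAOS2).

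Markers of other lineages were counted in the same way. Of 15 muscle markers TNNT1 and TNNT2 were highest; TNNT1, slow skeletal troponin T, had 223 to 271 TPM against at most 20.1 TPM, and the summed list was still higher in SAOS2 (932 to 1002 TPM) than in U2OS (527 to 561 TPM). The muscle genes TNNC1 and MYL2, outside the list and chosen after their values were seen, had 183 to 287 TPM against at most 8.25 TPM and 34 to 46.7 TPM against at most 0.459 TPM. Of 14 neural markers 3 were highest, and 9 of the 12 tested had a log2 fold change above 0. The leading one of the 3 was NEFL, neurofilament light, with 36.6 to 42.9 TPM against at most 1.15 TPM. STMN2 had 0.351 to 0.436 TPM and was listed at 0 elsewhere, so it could only be highest. NCAM1 had 34.5 to 45.7 TPM, close to SAOS2, which reached 33.2 TPM. The summed neural list had 417 to 420 TPM in U2OS, below G292 (627 to 802 TPM) and MG63 (496 to 580 TPM). It was above HOS-MNNG, KHOS and SAOS2. Of 14 epithelial markers 3 were highest: CLDN4 had 12.9 to 19.2 TPM, CDH1 1.58 to 2.45 TPM and KRT5 1.09 to 1.43 TPM, and the summed list was higher in HOS-MNNG than in U2OS. Of the 13 epithelial markers tested, 6 had a log2 fold change above 0, with a median of -0.058 against -0.186 over all tested genes. SFN and KRT81 are epithelial genes likewise outside the list and chosen after their values were seen. SFN had 504 to 538 TPM against at most 17.6 TPM, and KRT81 had 622 to 714 TPM against at most 30.4 TPM. Of 16 chondrocyte markers 1 was highest, MATN3, a cartilage matrix protein, with 14 to 16.7 TPM against at most 1.49 TPM, and 1 was lowest, COL9A3, with 0.196 to 0.331 TPM, which overlapped G292 (from 0.284 TPM). Of 15 blood and endothelial markers 0 were highest and 1 was lowest, and the summed list was lowest in U2OS and SAOS2, at 9.03 to 11.3 and 10.1 to 12.1 TPM. The part of other cell types in these values was not tested.

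Nuclear receptors and clock genes matter for U2OS because the line is a common host for reporters of both. NR3C1, the glucocorticoid receptor, had 20.1, 19.6 and 13.8 TPM in U2OS against 15.6 to 61.4 TPM. It was lowest in normalised CPM and overlapped with KHOS in TPM. NR0B1, also called DAX1, had 1.56 to 2.91 TPM in U2OS and at most 0.0403 TPM in other osteosarcoma lines, below the mean of 196 TPM in the highest Ewing sarcoma line. Of 34 nuclear receptors 4 were highest and 1 lowest. These were 12.5% and 3.12% of the 32 tested, against 12.6% and 8.17% of all tested genes. Of the 4 highest, 2 had fewer than 10 counts in every other line, so that they could be tested only through U2OS. Of 23 clock genes 2 were highest, which is 9.09% of the 22 tested and below that background, and 0 were lowest. NR1D1, the REV-ERB alpha repressor, had 22.3 to 28 TPM against at most 13.2 TPM. DBP, an output factor, had 14 to 18.3 TPM against at most 7.88 TPM.

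The genes were not spread evenly over the genome. Of 662 tested genes on chromosome 22, 176 (26.6%) were highest and 19 (2.87%) lowest, the largest share of highest genes of any chromosome. The densest window of 20 neighbouring tested genes there spanned chr22:25318257-26881785, where 17 of 20 were highest, including 9 protein-coding genes such as GRK3, MYO18B, SEZ6L and HPS4. MYO18B, an unconventional myosin, had 23.9 to 31.3 TPM against at most 7.51 TPM. Another window, chr22:21417371-22509154, held 15 of 20. Chromosome 13 had the largest share of lowest genes, 96 of 528 (18.2%), and a window at chr13:99962964-102875995 held 11 of 20, among them ZIC2, TPP2 and ERCC5. The densest window of lowest genes lay at chr19:10106223-10566010, with 12 of 20, including DNMT1, the maintenance DNA methyltransferase. DNMT1 had 72.1 to 88.0 TPM in U2OS against 101 to 235 TPM. DNA copy number was not measured.

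**Figure D5:**
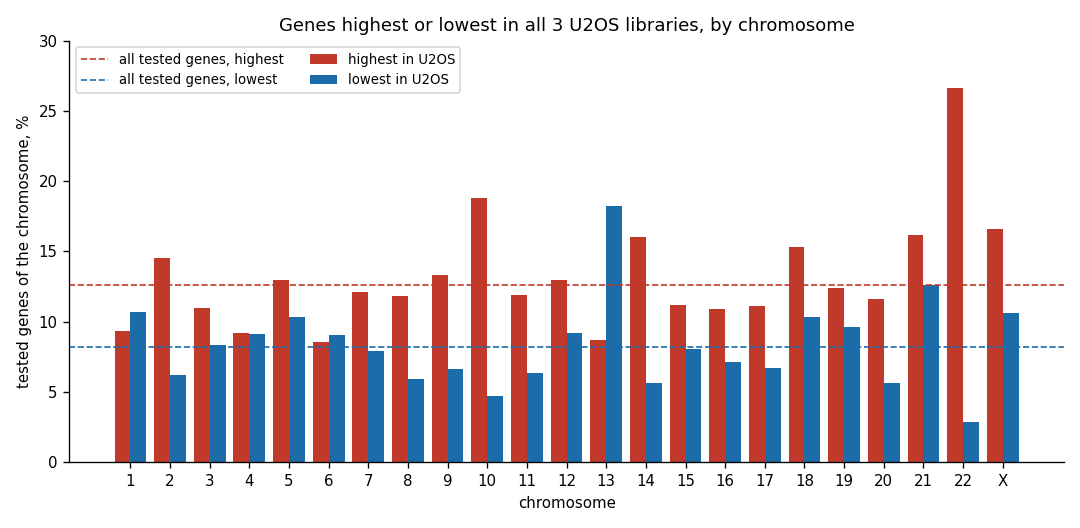
Share of the tested genes of each chromosome (%, vertical axis) that were highest (red bars) or lowest (blue bars) in all 3 U2OS libraries, with dashed lines at 12.6% and 8.17% for all tested genes. Chromosome 22 has 26.6% of its genes highest, and chromosome 13 has 18.2% lowest.

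Gene classes also differed between the highest and the lowest genes. Of 8155 tested long noncoding RNA genes 16% were highest and 1.46% lowest, while of 17143 protein-coding genes 11.1% were highest and 11.8% lowest. Many highest genes were quiet elsewhere: 798 of the 3360 had fewer than 10 estimated counts in each of the other lines. A gene that passed the filter on low counts through U2OS alone could only be highest.

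The Ewing sarcoma libraries were not used to choose the genes and give a further reference. Of the 3360 highest genes 2091 (62.2%) were also above all 21 Ewing sarcoma libraries in TPM, against 18.5% of all tested genes. Among the 2562 highest genes with at least 10 counts in another osteosarcoma line the share was 61.4%. Of the 2175 lowest genes 708 (32.6%) were also below all 21, against 6.66% of all tested genes. These shares use the same U2OS libraries that chose the genes and are a description. Among the leading genes, PAGE2, RFPL4A, GTSF1 and MAGEA4 had line means of at most 0.128 TPM in Ewing sarcoma, whereas CCND2 reached 32.7 TPM and KRT17 97.3 TPM. Among the lowest, GREM1, DKK1 and FBLN2 were low in Ewing sarcoma lines too, with highest line means of 3.82, 2.48 and 7.20 TPM.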

How the data were processed

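Poly(A) RNA of 18 osteosarcoma libraries was analysed (3 of each of 6 lines), extracted and prepared with the NucleoSpin RNA Plus and Illumina TruSeq Stranded mRNA kits, per the labels. For each library the authors deposited values of 177816 RefSeq transcripts, namely length, effective length, estimated counts (expected counts, not normalised) and TPM (scaled for effective length and depth), per the file headers. The effective length was used as another deposited value per the file headers, in nucleotides, only in the length alternatives. The submitters' processing notes name fastp 0.19.5, kallisto 0.46.2, hg38 and GRCh38.p14. How they were run is not stated there.

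Transcripts were joined to genes by accession, version ignored, through RefSeq GRCh38.p14: 169966 (95.59%) matched 41582 genes. The unmatched held 1.14% to 1.60% of the counts of an osteosarcoma library and were left out. Gene counts were summed, rounded, filtered with filterByExpr and scaled by TMM. The first test was edgeR's quasi-likelihood test on 6 line sums, 1 against 5 with 4 residual degrees of freedom, in which U2OS is assumed to vary like the other lines. The other was 1 edgeR fit of the 18 libraries with a contrast of U2OS against each line. Benjamini-Hochberg adjustment was over all genes tested. Neither test chose the highest and lowest genes, which follow from order alone, but all use the same comparison. KCNN1 was also compared by exact permutation over the 6 lines. The fits were tested on simulated data.

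The members and the 26 lists were chosen with earlier results of these data known. Genes were named by a rule: the channel genes, the 12 highest and 12 lowest with the largest margin, the 6 largest rises and falls among genes called on line sums (in both, pseudogenes and symbols starting with LOC left out), up to 6 highest or lowest members of each list, and a few further genes such as ATRX whatever their values. A few items are not reported here. MYO18B, DNMT1 and other members of the lists or windows outside that rule were chosen after their values were seen, among them XPC, PLK2, FAS, TNFRSF10B and CDKN1A, which show where genes of the damage response did not stand out. Alternatives were other scalings, filters, tools and units, and leaving out lines or replicates. Sequences are from the RefSeq promoter table of GRCh38.p14 and leave out everything after the start. Versions were edgeR 4.0.16, limma 3.58.1, DESeq2 1.42.0, R 4.3.3, Python 3.11.15, numpy 2.4.6, pandas 2.3.3 and matplotlib 3.10.9. Estimated counts cover counting error only, and low values carry the largest.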

Additional observations from a re-analysis of the deposited data

Results flagged for a closer look

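Among 139 named genes, 19 had 1 of the 5 other lines far from the rest, by Dixon's test at 95%, which chance alone passes in about 1 in 20 groups of 5. In TPM line means on which the test was run after adding 1 TPM and taking log2, SAOS2 was the high line for MAGEA4 (1.835), SUN3 (1.812), MAGEC1 (1.251), HOXA5 (18.39), KRT5 (0.7033) and NR0B1 (0.01345). G292 was high for KCNN2 (6.542), KRT17 (0.1096) and 1 gene of the telomere list (98.17). HOS-MNNG was high for CGAS (22.25), GTSF1 (0.09788) and CCND2 (0.0403), MG63 for TAP2 (119.1), NEFL (1.031) and TNNT2 (0.1362), and KHOS for TUBA3C (0.01204) and DCAF12L1 (0.005109). ATRX was low in SAOS2 (1.962) and CCNE1 in MG63 (5.225). In 8 of the 17 genes with a high line, that line itself was under 1 TPM.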

How the results depend on the processing

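The counts on line sums depended strongly on the settings. Against 70 higher and 2 lower genes, DESeq2 called 604 and 469, limma voom 608 and 30, a fit with all 13 lines 501 and 48, a length offset 45 and 0, DESeq2 size factors 65 and 0, and HOS-MNNG with KHOS as 1 unit 0 and 0. The library-level fit called 8877 and 6770, and 8845 and 6800 with the replicate number as a block; the numbers did not pair the libraries (median correlation of same-numbered libraries of different lines 0.0017, 45 pairs), and the block gave 2893 and 1924 genes called against each line. Leaving out a line gave 0 and 0 each time, leaving out a U2OS replicate 62 to 75 and 0 to 1, and leaving out a replicate number in every line 0 to 23 (0, 3 and 23) and 0. Ordering by TPM gave 1123 lowest genes in place of 2175. Counts of highest genes, and counts called against each line (2404 to 3563 higher, 1421 to 2747 lower), stayed within 1.5 times of the main values in every alternative run. Of 2769 alternative values for 139 named genes, 2303 kept direction and side of the threshold, 142 lost and 311 gained the call, and 13 changed sign, in 4 genes that were never called on line sums: KCNN2 (1.26 with limma voom, 1.15 without G292, 1.45 and 1.45 at library level without and with the block), RUNX2 (0.38 with limma voom, 0.66 without SAOS2, 0.62 and 0.62), COL1A1 (0.13, 0.24 without SAOS2, 0.25 and 0.25) and ALPL (0.059 without SAOS2). The cause was not tested. KCNN1 differed by 4.62 and 5.60 with pseudocounts of 0.1 and 0.01 TPM and by 2.27 to 2.37 without 1 U2OS library.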
